A study of Mus musculus with 6 samples.

Results

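The 50 genes described here are the listed genes of cell division, out of 17739 gene symbols in the deposited table of mammary epithelial organoids. They were chosen by name, with earlier results of these data known. All 50 were found in the table: 12 genes of DNA replication (Mcm2 to Mcm7, Pcna, Rrm1, Rrm2, Cdc6, Cdt1 and Gins2), 2 genes of thymidylate supply (Tyms and Tk1), 4 S-phase regulators (Ccne1, Ccne2, E2f1 and E2f8) and 32 genes of mitosis. The organoids, pieces of mammary epithelium freed by enzyme digestion of the gland, came from FVB mice on lactation day 1. They were wild type in 3 mice (replicates 1, 2 and 3 are the mice numbered 414, 434 and 436 in the labels) and Nmi-/- in 3 mice (406, 410 and 418), with 1 library of total RNA per mouse. The series describes the knockout as conditional, but the promoter that drives the recombinase, the deleted exons and the age of the mice are not stated in the labels used here. The study was set up to ask how loss of Nmi, a partner of Myc and STAT proteins that interferon induces, leads to excess proliferation of the gland in puberty and lactation, so these genes bear on its question directly.

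A dividing cell copies its DNA in S phase and separates the copies in mitosis. Cyclin E and E2F factors switch on the replication genes, the Mcm proteins unwind the DNA, and ribonucleotide reductase (Rrm1 with Rrm2) and thymidylate enzymes supply the nucleotides. Cyclin A and cyclin B with Cdk1 then drive the cell into mitosis, the spindle checkpoint holds it until the chromosomes are attached, and the anaphase-promoting complex releases it. Mammary alveolar cells divide heavily during pregnancy, and division slows as milk secretion begins.

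Replication genes are classically driven through E2F sites and mitosis genes through the cell cycle genes homology region (CHR) beside CCAAT boxes. These elements are shown for some of the genes described below, which do not include Cenpa, Mcm7 or Plk1. RefSeq promoter windows (GRCm38.p6, 250 bases before to 50 after the start) were given for 41 of the 50 genes. The CHR was searched as TTTGAA or TTCGAA, the CCAAT box as CCAAT, and the E2F site as TTTCCCGC, TTTGGCGC, TTTCGCGC or TTTGCCGC, each on both strands, and neighbouring matches may overlap. A CHR stood in 21 of 26 mitosis genes (80.8%) and in 2 of 10 replication genes (20.0%), against 21.7% of all 27025 genes with a window. An E2F site stood in 6 of 10 replication genes (60.0%) and in 1 of 26 mitosis genes (3.85%), against 2.61% of all genes. The replication genes without an E2F match were Mcm2, Pcna, Rrm1 and Rrm2, and those with a CHR were Mcm2 and Mcm7. CCAAT boxes were frequent in both classes, in 22 of 26 mitosis genes (84.6%) and 8 of 10 replication genes (80.0%), against 41.1% of all genes. A match is a description of the letters, not proof of a bound site.

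The 160 bases before the start are shown for 2 replication genes and 4 mitosis genes, 5′ to 3′ on the strand of the gene, with every match in capitals. Mcm5 (chr8:75109349-75109508, plus strand) and Mcm6 (chr1:128359706-128359865, minus strand) each hold a pair of overlapping E2F matches on opposite strands, and Mcm6 a further match.
Mcm5: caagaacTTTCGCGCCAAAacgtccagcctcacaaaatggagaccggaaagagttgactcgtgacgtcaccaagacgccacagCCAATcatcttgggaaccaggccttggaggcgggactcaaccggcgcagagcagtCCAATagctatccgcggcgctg
Mcm6: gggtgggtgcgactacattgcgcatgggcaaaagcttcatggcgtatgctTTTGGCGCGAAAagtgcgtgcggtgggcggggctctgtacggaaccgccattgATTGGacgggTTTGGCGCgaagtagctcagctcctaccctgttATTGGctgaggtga
Cdk1 (chr10:69352913-69353072, minus strand) holds 1 E2F match and 2 copies of the CHR, at 71 and 15 bases before the start. Mki67 (chr7:135716380-135716539, minus strand), Top2a (chr11:99024190-99024349, minus strand) and Ube2c (chr2:164769769-164769928, plus strand) hold CHR and CCAAT matches and no E2F match.
Cdk1: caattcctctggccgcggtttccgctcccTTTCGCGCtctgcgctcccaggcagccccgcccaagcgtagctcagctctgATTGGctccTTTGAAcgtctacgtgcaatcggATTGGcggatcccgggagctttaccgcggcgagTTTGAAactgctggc
Mki67: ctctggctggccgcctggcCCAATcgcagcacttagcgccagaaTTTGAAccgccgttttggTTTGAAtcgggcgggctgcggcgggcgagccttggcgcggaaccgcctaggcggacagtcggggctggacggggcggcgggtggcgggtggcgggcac
Top2a: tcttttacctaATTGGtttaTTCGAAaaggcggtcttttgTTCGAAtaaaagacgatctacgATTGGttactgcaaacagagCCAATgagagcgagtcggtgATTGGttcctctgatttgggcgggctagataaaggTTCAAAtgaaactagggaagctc
Ube2c: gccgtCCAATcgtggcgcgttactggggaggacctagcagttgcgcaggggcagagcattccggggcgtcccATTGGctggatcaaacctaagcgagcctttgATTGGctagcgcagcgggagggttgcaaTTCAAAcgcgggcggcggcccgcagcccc

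The values are FPKM, fragment numbers scaled to gene length and to the library total, and milk transcripts take a large part of that total. The 8 listed milk protein genes held 44.7% to 66.2% of the FPKM sum in wild type and 60.3% to 72.7% in the knockout, with the lowest share in wild-type replicate 1 and the highest in knockout replicate 3. Most genes were lowest in knockout replicate 3 (65.8% of the 9767 genes tested) and highest in wild-type replicate 1 (63.5%). A pair of rescalings, to a trimmed mean of genes and to the sum outside milk proteins, are given where they change a statement. Nmi was 4.60, 2.82 and 2.32 FPKM in wild type, then 0.188, 0.547 and 0.564 FPKM in the knockout, so the labels matched the targeted gene. Gapdh, used by every cell, was listed at 0 to 0.0769 FPKM, so a low entry in this table may be a failed estimate. No member was listed at 0. The absolute depth is unknown, so counting error could not be computed, and many members are low: 14 stayed below 1 FPKM in every library. In bulk organoids, fewer dividing cells and less RNA of these genes per cell cannot be told apart.

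The cell cycle genes differed widely between mice of the same genotype. Knockout replicate 1 was the lowest library for 42 of the 50 genes, and for 21 of the 22 that could be tested, where it was the lowest library for 8.63% of all genes tested. Knockout replicate 3 stood at the other end of the same genotype: it was above knockout replicate 1 for 49 of 50 genes and above knockout replicate 2 for 47, where the shares over all genes tested were 21.2% and 17.4%. In wild type, replicate 1 was above replicate 2 for 47 of 50 genes and replicate 3 was above replicate 2 for 42, against 75.6% and 18.9% of all genes. The ratio of the highest to the lowest library had a median of 5.53 over the 50 genes and 2.09 over all genes tested, and it ran from 1.66 (Pcna) to 11.7 (Kif2c). The 2 medians do not cover the same range of levels, since 28 of the 50 genes lie under the filter that all genes tested passed.

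**Figure D1:**
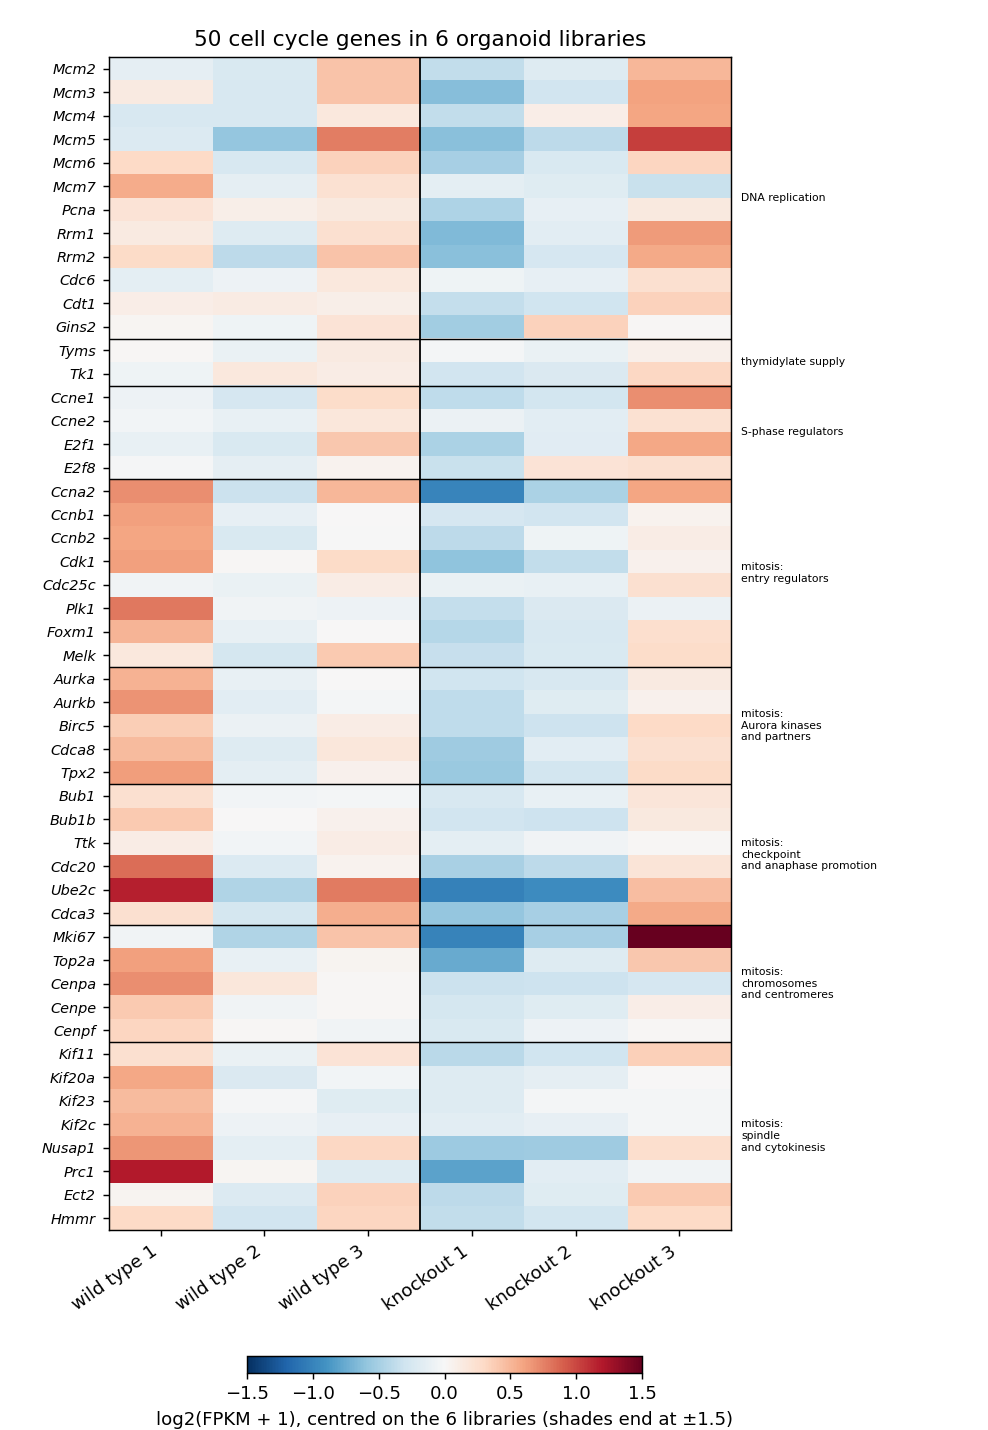
Each row is 1 of the 50 genes and each column 1 library, with log2(FPKM + 1) centred on the 6 libraries in colour and the classes set apart by lines. The column of knockout replicate 1 is blue for nearly all genes (lowest for 42 of 50), most mitosis genes are darkest red in wild-type replicate 1, and replication genes and S-phase regulators are red in wild-type replicate 3 and knockout replicate 3.

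As deposited, replication and mitosis genes did not peak in the same mice, but this depended on the scale. Of the 32 mitosis genes, 24 were highest in wild-type replicate 1 and 5 in knockout replicate 3. Of the 12 replication genes, 8 were highest in knockout replicate 3 and 2 in wild-type replicate 1. Over all genes tested, 63.5% were highest in wild-type replicate 1 and 7.74% in knockout replicate 3. The 24 mitosis genes (75.0%) thus lay near the share of all genes. The class level, the mean of the centred log2(FPKM + 1) over a class, was 0.49, -0.13 and 0.13 for mitosis across wild-type replicates 1 to 3 and -0.44, -0.27 and 0.22 across knockout replicates 1 to 3. For replication it was 0.08, -0.18 and 0.30 in wild type and -0.45, -0.15 and 0.39 in the knockout. Mitosis thus stood above replication by 0.40 in wild-type replicate 1, and the gap lay between -0.17 and 0.05 in the other 5 libraries. Over all genes tested, the level was 0.31 in wild-type replicate 1 and -0.34 in knockout replicate 3, so knockout replicate 3 was high in cell cycle genes while most genes were low there. The gap between mitosis and replication also depended on the pseudocount. With 0.1 in place of 1, mitosis was at 0.97, -0.23 and 0.30 in wild type and -1.01, -0.53 and 0.48 in the knockout. Replication was then at 0.09, -0.26 and 0.48 in wild type and -0.67, -0.22 and 0.59 in the knockout. After trimmed-mean rescaling, 12 mitosis genes peaked in wild-type replicate 1 and 18 in knockout replicate 3, where 11 of the 12 replication genes also peaked. Of all genes tested, 27.6% then peaked in wild-type replicate 1 and 29.3% in knockout replicate 3. With the sum outside milk proteins, 16 mitosis genes peaked in wild-type replicate 1 and 14 in knockout replicate 3, beside 10 of the replication genes. The shares of all genes tested were 36.5% and 19.7%. Knockout replicate 1 was the lowest library for 35 and 40 of the 50 genes under these scales, against 12.8% and 16.1% of all genes tested.

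**Figure D2:**
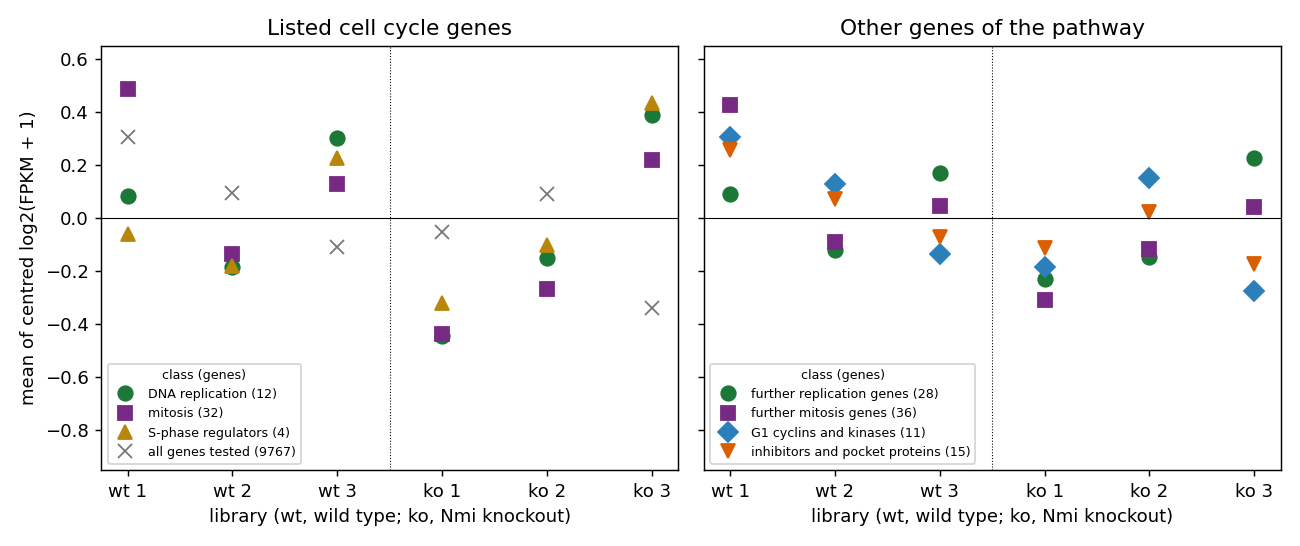
Points are the mean of log2(FPKM + 1), centred on the 6 libraries, over the genes of a class (number in brackets), by library, for the listed genes (left) and for other genes of the pathway (right). Mitosis genes (squares) are highest in wild-type replicate 1 at 0.49, replication genes (circles) in knockout replicate 3 at 0.39, and both are lowest in knockout replicate 1, while the mean of all genes tested (crosses) is lowest in knockout replicate 3.

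The Mcm2 to Mcm7 proteins form the ring that opens the double helix. Mcm5 had 1.13, 0.640 and 3.15 FPKM in wild-type mice 1 to 3, then 0.586, 0.860 and 4.03 FPKM in knockout mice 1 to 3. Replicate 3 of each genotype was the high library, and the groups overlapped fully. Mcm2 followed the same order, with 1.48, 1.32 and 2.66 FPKM in wild type, then 1.10, 1.38 and 2.83 FPKM in the knockout. Mcm4 had 2.17, 2.16 and 3.17 FPKM in wild type, then 1.90, 2.99 and 4.64 FPKM in the knockout, and was the Mcm gene with the highest mean in the knockout relative to wild type. Mcm3 had 1.58, 0.994 and 2.18 FPKM, then 0.508, 0.931 and 2.59 FPKM. Replicate 3 was the highest library of each genotype for Mcm2 to Mcm6. Mcm6 had 6.17, 3.93 and 6.40 FPKM in wild type, then 3.14, 3.95 and 6.30 FPKM in the knockout.

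As deposited, Mcm7 went its own way among the Mcm genes. It had 4.83, 2.63 and 3.67 FPKM in wild type, then 2.59, 2.50 and 2.15 FPKM in the knockout, so that knockout replicate 3 was its lowest library and the groups did not overlap. The margin was small, with 2.63 FPKM in wild-type replicate 2 against 2.59 FPKM in knockout replicate 1. Its log2 fold change was -0.44 (SE 0.23, unadjusted p = 0.0818, adjusted p = 0.768, limma with Benjamini-Hochberg adjustment). Under both rescalings knockout replicate 3 was the highest knockout library for Mcm7 instead of its lowest library, so this departure depended on the scale. No replication gene then had groups apart. Exons of Mcm7 overlap those of its neighbours Cops6 and Ap4m1 on the opposite strand, and the transcript of Gm5487 is a near-identical copy, so its value is less certain than those of the other Mcm genes.

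Among the remaining replication genes, Pcna, the sliding clamp of DNA polymerase, had the highest level of all 50 genes. As deposited it was even in wild type, at 13.6, 12.4 and 13.0 FPKM, and stood at 8.15, 10.6 and 13.0 FPKM in the knockout. Only knockout replicate 3 reached the wild-type range. Pcna had a pseudogene copy, Pcna-ps2. Cdt1, which loads the Mcm ring, was also even in wild type as deposited, at 2.06, 2.12 and 2.04 FPKM. It spread in the knockout to 1.24, 1.32 and 2.63 FPKM, on both sides of the wild-type values. Under both rescalings Pcna and Cdt1 were not even in wild type but rose from replicate 1 to replicate 3. Knockout replicate 3 was then above all wild-type libraries for both genes. Rrm1 and Rrm2, the subunits of ribonucleotide reductase, moved together. Rrm1 had 3.22, 2.37 and 3.56 FPKM in wild type, then 1.44, 2.44 and 4.99 FPKM in the knockout. Rrm2 had 3.60, 1.88 and 4.08 FPKM and 1.45, 2.17 and 4.62 FPKM. Gins2, a subunit of the replicative helicase, was highest in knockout replicate 2 (2.00 FPKM) and lowest in knockout replicate 1 (0.636 FPKM) as deposited. With the trimmed mean its highest library was knockout replicate 3. Its exons overlap Gse1 on the other strand. Cdc6, another loader of the Mcm ring, stayed between 0.0734 and 0.403 FPKM and was not tested.

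The S-phase regulators were low and shared their highest library. Ccne1, which encodes cyclin E1, had 0.470, 0.301 and 0.874 FPKM in wild type, then 0.188, 0.278 and 1.51 FPKM in the knockout. E2f1, an activator of replication genes, had 0.878, 0.736 and 1.69 FPKM and 0.462, 0.801 and 2.03 FPKM. Knockout replicate 3 was the highest library for Ccne1, E2f1, Ccne2 and E2f8 alike, under all 3 scales, and wild-type replicate 3 was second for the first 3 of them. For E2f8, a repressor of the E2F family, the second highest library was knockout replicate 2 (0.709 FPKM, against 0.751 FPKM in knockout replicate 3). Ccne2 ran from 0.0904 to 0.430 FPKM. Of the thymidylate enzymes, Tk1 had 0.644, 0.919 and 0.849 FPKM in wild type, then 0.402, 0.472 and 1.13 FPKM in the knockout, and Tyms stayed between 0.205 and 0.413 FPKM. None of these 6 genes passed the filter on low values, so no test was made; without that filter Ccne1 and Ccne2 were at 0.03 (SE 0.31) and -0.011 (SE 0.12) as log2 fold changes.

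Of the regulators of mitotic entry, Cdk1 (chr10:69335146-69352938, minus strand), the kinase that starts mitosis, had 2.04, 1.00 and 1.41 FPKM in wild type, then 0.308, 0.535 and 1.07 FPKM in the knockout. Knockout replicate 3 lay just above wild-type replicate 2, and the other knockout libraries lay below all wild-type libraries. The cyclin A2 gene Ccna2 had 3.85, 1.39 and 3.20 FPKM and 0.509, 1.15 and 3.49 FPKM, with the same split of the knockout libraries, and its exons overlap Exosc9 on the opposite strand. Ccnb1, which encodes cyclin B1, had 1.18, 0.306 and 0.428 FPKM in wild type, then 0.190, 0.162 and 0.470 FPKM in the knockout, and 3 near-identical copies of its transcript (Ccnb1-ps, Gm12856 and Gm8416) make its value uncertain. It was not tested; without the filter its log2 fold change was -0.33 (SE 0.21, adjusted p = 0.829, limma with Benjamini-Hochberg adjustment). Plk1, a kinase of mitotic entry and spindle assembly, had 1.80, 0.568 and 0.541 FPKM and 0.265, 0.399 and 0.523 FPKM, so its groups did not overlap, although the nearest libraries differed by less than the spread within either group. Foxm1, the transcription factor of G2 and mitosis genes, had 1.66, 0.739 and 0.885 FPKM and 0.395, 0.584 and 1.23 FPKM. Ccnb2, Cdc25c and Melk also had their lowest values in knockout replicates 1 or 2, and Cdc25c, the phosphatase that activates Cdk1, was highest in knockout replicate 3 at 0.343 FPKM.

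As deposited, the Aurora kinases and their partners were highest in wild-type replicate 1 and lowest in knockout replicate 1 in 5 of 5 cases. Over all genes tested these shares were 63.5% and 8.63%. The peak depended on the scale. The trimmed-mean factors (1.31 in wild-type replicate 1, 0.734 in knockout replicate 3) put knockout replicate 3 above wild-type replicate 1 for Aurka, Birc5, Cdca8 and Tpx2. Aurkb, the kinase of the chromosomal passenger complex, had 1.31, 0.300 and 0.418 FPKM in wild type, then 0.112, 0.277 and 0.518 FPKM in the knockout. Birc5 (survivin) and Cdca8 (borealin), of the same complex, had 0.311 to 1.20 FPKM and 0.474 to 1.98 FPKM over the 6 libraries. Aurka, the centrosome kinase, ran from 0.390 to 1.46 FPKM, and its activator Tpx2 from 0.260 to 1.87 FPKM.

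Ube2c (chr2:164769898-164778822, plus strand), the ubiquitin-conjugating enzyme of the anaphase-promoting complex, differed widely between mice, and its exons overlap Tnnc2 on the opposite strand. It had 8.52, 2.11 and 6.32 FPKM in wild type, then 1.10, 1.21 and 4.86 FPKM in the knockout. Wild-type replicates 1 and 3 and knockout replicate 3 were the high libraries, and the groups overlapped through knockout replicate 3 and wild-type replicate 2. Cdc20, an activator of the same complex, had 2.23, 0.573 and 0.882 FPKM and 0.288, 0.381 and 1.06 FPKM. Cdca3, which promotes mitotic entry, was highest in knockout replicate 3 (2.15 FPKM), close to 2.09 FPKM in wild-type replicate 3. The spindle checkpoint kinases were low, with Bub1 between 0.0592 and 0.477 FPKM, Bub1b between 0.334 and 1.17 FPKM and Ttk between 0.0353 and 0.241 FPKM.

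Mki67 (chr7:135689784-135716361, minus strand), which encodes the proliferation antigen Ki-67, departed from most other mitosis genes as deposited. It had 2.82, 1.90 and 4.32 FPKM in wild type, then 0.983, 1.80 and 10.7 FPKM in the knockout. Top2a, the topoisomerase that untangles chromosomes and a marker read beside Ki-67, had 2.98, 1.41 and 1.67 FPKM and 0.534, 1.27 and 2.42 FPKM. In knockout replicate 3, as deposited, Mki67 was above every wild-type library and Top2a was below wild-type replicate 1. Under both rescalings Top2a in knockout replicate 3 was also above every wild-type library, so this contrast depended on the scale. The ratio of Mki67 to Top2a was 0.949, 1.35 and 2.58 across wild-type replicates 1 to 3 and 1.84, 1.42 and 4.43 across knockout replicates 1 to 3, and this ratio within a library does not depend on the scale. Besides Mki67, the mitosis genes with knockout replicate 3 above all wild-type libraries were Cdc25c, Cdca3, Kif11 and Ect2, so 5 of 32, against 8 of 12 replication genes and 4 of 4 S-phase regulators and 9.65% of all genes tested. After trimmed-mean rescaling knockout replicate 3 was above all wild-type libraries for 18 of 32 mitosis genes, 11 of 12 replication genes and 35.5% of all genes, and outside milk proteins for 14, 10 and 24.0%. Cenpa (chr5:30666777-30674830, plus strand, GENCODE M21 on GRCm38), the histone that marks centromeres, was nearly level across the knockout libraries as deposited. It had 2.91, 1.72 and 1.45 FPKM in wild type, then 0.928, 0.946 and 1.02 FPKM in the knockout, and its groups did not overlap. Under both rescalings knockout replicate 3 stood clearly above the other knockout libraries for Cenpa, though still below all wild-type libraries. The kinetochore genes Cenpe and Cenpf stayed below 1 FPKM, with 0.0610 to 0.667 FPKM and 0.0759 to 0.579 FPKM.

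**Figure D3:**
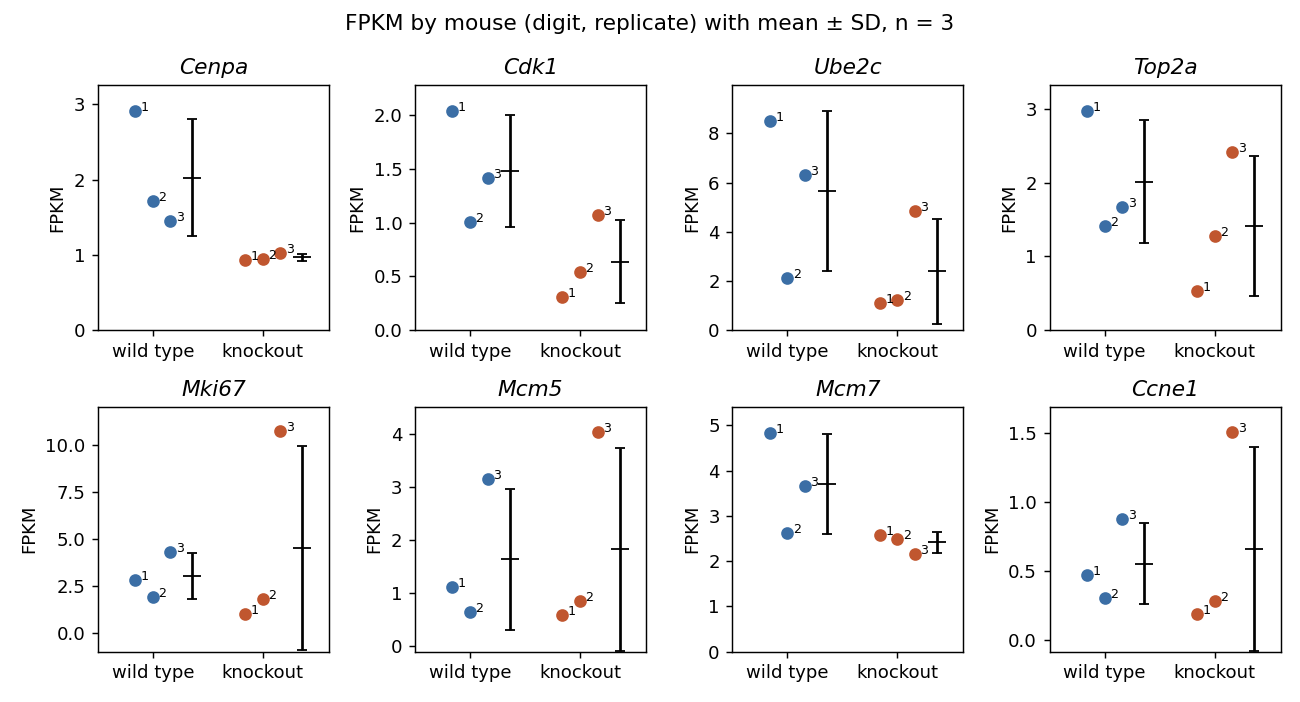
FPKM of 8 of the genes, with a point per mouse marked by its replicate number and the mean ± SD of each genotype (n = 3) to the right of the points. Cenpa and Mcm7 have knockout points below all wild-type points, while for Mki67, Mcm5 and Ccne1 replicate 3 of the knockout is the highest point, at 10.7, 4.03 and 1.51 FPKM.

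Genes of the spindle and of cytokinesis were led by Prc1, which bundles the microtubules of the midzone. Prc1 had 6.50, 2.34 and 1.87 FPKM in wild type, then 0.885, 1.93 and 2.16 FPKM in the knockout, so the difference in means came mostly from wild-type replicate 1; its exons overlap Rccd1 on the opposite strand. Nusap1, which stabilizes spindle microtubules, had 1.93, 0.677 and 1.31 FPKM and 0.273, 0.287 and 1.22 FPKM. The motor genes Kif20a, Kif23 and Kif2c were at 0.967, 0.795 and 0.697 FPKM in wild-type replicate 1 and did not pass 0.326 FPKM in any other library. Kif11, the motor that pushes the spindle poles apart, had 1.00, 0.587 and 0.965 FPKM and 0.289, 0.381 and 1.17 FPKM. Ect2, which starts the cleavage furrow, and Hmmr, a spindle protein, were lowest in knockout replicate 1 (0.187 and 0.103 FPKM) and reached 1.04 and 0.753 FPKM in knockout replicate 3.

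Between the genotypes, no cell cycle gene passed the adjusted threshold. The test was limma on log2(FPKM + 1) over the genes with at least 1 FPKM in at least 3 libraries, which 22 of the 50 genes met: 11 of replication and 11 of mitosis. With Benjamini-Hochberg adjustment over all 9767 genes, 0 of the 22 were called at 0.05, as were 0 genes (0%) of all those tested, and the adjusted p of the 22 lay between 0.768 and 0.990. At an unadjusted p under 0.05, 2 of the 22 were lower in the knockout, Cenpa and Cdk1, and 0 were higher; over all genes tested the share was 1.33%, of which 1.15% lower and 0.184% higher. The groups did not overlap for 3 of the 50 genes, Cenpa, Plk1 and Mcm7, with the knockout lower each time, against 3.61% of all genes above 0 in a library and 3.83% of the genes tested. Under both rescalings 1 gene was left, Cenpa, since Mcm7 and Plk1 then overlapped. Of the 9767 genes tested, 334 were apart and lower with the trimmed mean and 374 outside milk proteins. The filter had a direction here: 7 of the 22 genes had at least 1 FPKM in every wild-type library but not in every knockout library, and 0 the reverse, so their count and median are not evidence of a decrease.

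Cenpa had the smallest p of the 22. Its mean was 2.02 ± 0.778 FPKM in wild type, against 0.965 ± 0.0492 FPKM in the knockout (SD over 3 mice each), which gave -0.59 on the log2 scale (SE 0.21, 95% interval -1.06 to -0.12), with unadjusted p = 0.0179 and adjusted p = 0.768 in limma. An exact two-sided permutation test on Cenpa gave 0.1, which is the floor of this design. Cdk1 had 1.48 ± 0.521 and 0.637 ± 0.390 FPKM, and its log2 fold change was -0.61 (SE 0.23, unadjusted p = 0.0220, adjusted p = 0.768 with limma). Ube2c had the most negative estimate, -0.998 (SE 0.46), with 5.65 ± 3.26 and 2.39 ± 2.14 FPKM. The next mitosis genes by p were Nusap1 (-0.55, SE 0.27), Prc1 (-0.68, SE 0.35) and Ccna2 (-0.58, SE 0.38). When 1 library at a time was left out, the estimate ran from -0.73 to -0.39 for Cenpa, -0.79 to -0.45 for Cdk1, -1.48 to -0.67 for Ube2c, -0.81 to -0.36 for Nusap1, -0.95 to -0.25 for Prc1 and -1.02 to -0.23 for Ccna2. The smallest size came without wild-type replicate 1, and for Ccna2 without knockout replicate 1. Top2a was at -0.37 (SE 0.30), and at -0.15 without wild-type replicate 1 or -0.080 without knockout replicate 1. Mki67 was at 0.05 (SE 0.53, 95% confidence interval -1.12 to 1.22), where the single high library of the knockout sets both the mean and the width: without it the estimate was -0.72.

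Of the replication genes, those with the smallest p after Mcm7 were Pcna (log2 fold change -0.29, SE 0.25), Mcm6 (-0.27, SE 0.28), Cdt1 (-0.21, SE 0.23), Mcm4 (0.22, SE 0.27) and Mcm3 (-0.22, SE 0.31). Without knockout replicate 1 the estimates were -0.13 for Pcna, -0.089 for Mcm6, -0.085 for Cdt1, 0.45 for Mcm4 and 0.052 for Mcm3. All of the 95% confidence intervals with 6 libraries crossed 0, and the interval of a tested cell cycle gene had a median half-width of 0.60. The median log2 fold change was -0.21 over the 11 tested replication genes and -0.55 over the 11 tested mitosis genes, beside -0.21 over all genes tested. Without knockout replicate 1 the mitosis median was -0.23, the same as the -0.23 of all genes, and the replication median was 0.053. With no filter on low values, the medians were -0.17 over the 12 replication genes, -0.27 over the 32 mitosis genes and -0.06 over all genes. Trimmed-mean rescaling moved the median of all genes from -0.21 to 0.0031, that of replication genes to -0.0024 and that of mitosis genes to -0.38. On the log2 scale, 30 of the 32 mitosis genes had a lower mean in the knockout as deposited and under both rescalings. Of the 11 tested mitosis genes 10 did on each scale, where all genes tested went from 81.7% to 49.3% with the trimmed mean. With no filter, 70.3% of all genes had a lower mean as deposited. Of the 12 replication genes 9 had a lower mean as deposited, and 6 with the trimmed mean. Over all genes at an unadjusted p under 0.05, the higher share was 13.8% as deposited, 55.6% with the trimmed mean and 43.0% outside milk proteins.

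**Figure D4:**
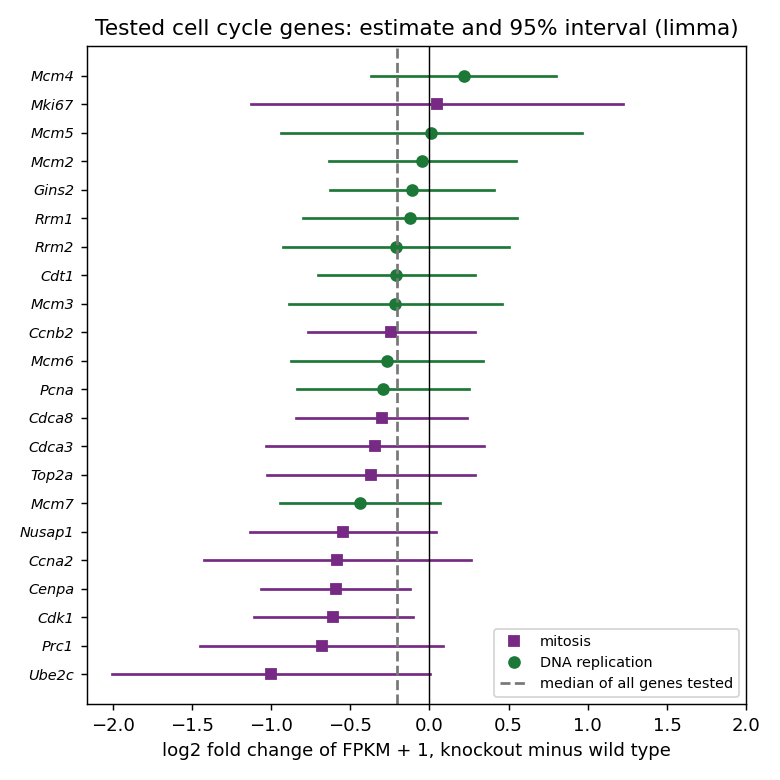
Log2 fold change of FPKM + 1, knockout minus wild type, with the 95% confidence interval from limma, for the 22 tested cell cycle genes; the dashed line is the median of all genes tested. Mitosis genes (squares) lie mostly to the left of the dashed line at -0.21 and replication genes (circles) around it, and the intervals of 20 genes reach 0, all but those of Cenpa and Cdk1.

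The comparison depended on single libraries, on wild-type replicate 1 and knockout replicate 1 as well as knockout replicate 3. The last was above knockout replicate 1 for 49 of 50 genes and above knockout replicate 2 for 47. Leaving it out therefore had to lower the knockout, and the counts without it are not separate evidence of a decrease. Separation of the genotypes was counted with this library removed and with no other. It then held for 30 of the 50 genes, all lower in the knockout, against 5.56% of all genes above 0 in a library. Among the 30 were 24 of 32 mitosis genes and 4 of 12 replication genes. At an unadjusted p under 0.05, 10 of the 22 tested genes were then lower (Ube2c, Ccna2, Cdk1, Nusap1, Cdca3, Mki67, Cenpa, Top2a, Mcm3 and Prc1), against 0.45% of all genes, and none passed the adjusted threshold (smallest adjusted p = 1.00, limma). Without wild-type replicate 1 the number at an unadjusted p under 0.05 was 0 of 22, against 0.164% of all genes, and without knockout replicate 1 it was also 0, against 1.45%. It was 6 without wild-type replicate 2 (0.84% of all genes), 3 without wild-type replicate 3 (5.89%), and with knockout replicate 2 left out it was 2 (10.9%). Both rescalings left 1 gene, Cenpa, against 0.778% of all genes with the trimmed mean and 0.87% outside milk proteins. Nothing in the labels sets knockout replicate 3 apart. Nmi was 0.188 FPKM in knockout replicate 1, 0.547 FPKM in replicate 2 and 0.564 FPKM in replicate 3, and its part in these values was not tested.

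The rest of the pathway held 98 further genes in 5 lists. Of 28 further replication genes, 14 were highest in knockout replicate 3, against 7.74% of all genes tested. Of 36 further mitosis genes, 28 were highest in wild-type replicate 1, against 63.5%. After trimmed-mean rescaling, 22 of the 28 and 19 of the 36 were highest in knockout replicate 3, against 29.3% of all genes tested. The mitosis list thus changed its leading library with the scale here too. Their class levels in knockout replicate 1, the lowest library for both lists, were -0.23 and -0.31. In each of the 5 lists 0 genes passed the adjusted threshold. In limma's fit, 1 gene of the 55 tested was lower at an unadjusted p under 0.05 and 0 were higher, a share near the 1.15% lower of all genes. That gene was Cdkn1b, which encodes the CDK inhibitor p27. It had 33.8, 28.2 and 24.4 FPKM in wild type, then 20.8, 21.6 and 11.8 FPKM in the knockout. Its groups did not overlap, which held for 3.83% of all genes tested with the knockout lower. The log2 fold change of Cdkn1b was -0.68 (SE 0.29, unadjusted p = 0.0412, adjusted p = 0.768 with limma), and -0.41 without knockout replicate 3, which was its lowest library.

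Inhibitors, G1 cyclins with their kinases and the E2F family were mostly highest in wild-type replicate 1 as deposited, as most genes were: 9 of 15, 8 of 11 and 7 of 8. After trimmed-mean rescaling the numbers were 3, 4 and 4, against 27.6% of all genes tested. As deposited, the level of the 11 G1 cyclins and kinases was 0.31 in wild-type replicate 1 and -0.27 in knockout replicate 3, near those of all genes tested, and the level of the 15 inhibitors and pocket proteins was 0.26 and -0.17. As deposited, the knockout lay apart and lower for 1 of 11 G1 genes, 4 of 15 inhibitors and 1 of 8 E2F genes, and higher for 1 inhibitor. Over all genes tested 3.83% were lower and 0.778% higher. With the trimmed mean the lower counts were 0, 2 and 1, and 0 were higher. Of the 9767 genes tested, 334 were then lower and 280 higher. Cdk2, the partner of cyclin E, had 7.80, 5.56 and 5.13 FPKM in wild type, then 4.98, 4.68 and 4.04 FPKM in the knockout. Its groups were apart only before that rescaling, and its log2 fold change was -0.35 (SE 0.23). Cdk7, which activates the other cyclin-dependent kinases, was at -0.37 (SE 0.22) and Lin9, of the complex that reads the CHR, at -0.35 (SE 0.25). E2f5 had 7.78, 5.26 and 4.46 FPKM and 3.42, 4.41 and 3.21 FPKM, with groups apart and -0.52 (SE 0.25), and E2f6 was at -0.52 (SE 0.25). Leaving out 1 library at a time gave -0.45 to -0.19 for Cdk2, -0.51 to -0.18 for Cdk7, -0.51 to -0.11 for Lin9, -0.67 to -0.33 for E2f5 and -0.75 to -0.32 for E2f6. Among further replication genes, Dbf4, a partner of the kinase Cdc7, was at -0.44 (SE 0.27, leave-one-out -0.62 to -0.13) and Pola2, a subunit of DNA polymerase alpha, at -0.27 (SE 0.19). Among further mitosis genes, the checkpoint gene Bub3 was at -0.56 (SE 0.32, leave-one-out -0.78 to -0.25) and the lamin gene Lmnb1 at -0.70 (SE 0.41, leave-one-out -1.21 to -0.36).

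Markers of the cells in these organoids varied between the same libraries. The 6 luminal markers, which the labelled epithelium should hold, summed to 2570 to 5195 FPKM in wild type and 1041 to 3306 FPKM in the knockout. The highest sum was in wild-type replicate 1 and the lowest in knockout replicate 3, and 0 of the 6 were listed at 0. Krt8, Krt18, Krt19, Epcam and Cdh1 were each lowest in knockout replicate 3. Elf5 was not: it had 159 to 173 FPKM in wild type, then 237, 142 and 207 FPKM across knockout replicates 1 to 3. The 6 basal markers summed to 375 to 777 FPKM in wild type and 293 to 1063 FPKM in the knockout. Acta2 and Myh11 were highest in knockout replicate 2, and Krt5, Krt14, Trp63 and Oxtr in wild-type replicate 1. Of the 12 immune markers 10 were in the table, and they summed to 10.6 to 12.6 FPKM in wild type and 8.31 to 15.6 FPKM in the knockout. The members of this list went different ways. Cd68, a macrophage marker and the highest of the list, was 6.84 to 6.94 FPKM in wild type, then 5.03, 5.64 and 3.35 FPKM across knockout replicates 1 to 3. Lyz2, of myeloid cells, was 3.23 to 5.24 FPKM, then 2.81, 8.75 and 8.56 FPKM, and Csf1r 0.188 to 0.318 FPKM, then 0.208, 0.711 and 0.951 FPKM. Ptprc, the pan-leukocyte marker, was 0.0486 to 0.0880 FPKM, then 0.0647, 0.0960 and 0.303 FPKM, and the T cell marker Cd3e did not exceed 0.118 FPKM. The 6 endothelial markers summed to 74.2 to 140 FPKM and 64.8 to 129 FPKM, and the 6 fibroblast markers to 22.7 to 52.1 FPKM and 32.2 to 59.1 FPKM. Of the adipocyte markers, Adipoq and Plin1 were at or below 0.0957 FPKM, while Fabp4, which endothelial cells also express, ran from 157 FPKM in knockout replicate 3 to 672 FPKM in wild-type replicate 1. The part of these cells in the cell cycle values was not tested.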

How the data were processed

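RNA of mammary epithelial organoids was sequenced from 3 wild-type and 3 Nmi-/- mice, 1 library each. The authors deposited FPKM, in 1 table of 17739 genes. The submitters' processing notes name TopHat, Cufflinks, SAMtools and FastQC, and mm10 and GRCm38 as builds, with no version, annotation or strand setting. Without strand, reads of overlapping antisense genes cannot be told apart.

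A gene was tested if 3 or more libraries held 1 FPKM or more (9767 genes), on log2(FPKM + 1), so fold changes of low genes are understated. The test was limma 3.58.1 in R 4.3.3 with an intensity trend, two-sided, knockout against wild type with no covariate, with Benjamini-Hochberg adjustment at 0.05. It was checked on simulated data. The numbers of the mice do not pair them, and whether they shared a litter is not given.

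The members and lists were chosen with earlier results of these data known. Statistics are given for the 6 tested genes with the smallest p in the replication and mitosis classes, for Mki67, Top2a, Pcna, Ccnb1, Cdk1, Ccne1 and Ccne2, and for 2 genes of each further list; other members are given by their values. Plk1, the Mki67 to Top2a ratio and the library comparisons, and the markers Elf5, Cd68, Lyz2, Csf1r and Ptprc, were singled out after their values were seen. Near-identical copies matched another gene's transcript at no less than 95% identity across 50% of its length or more (BLAST 2.17.0, GENCODE M21). Alternatives were a pseudocount of 0.1, no filter, 2 rescalings, leaving out each library, and leaving out wild-type replicate 1 with knockout replicate 3.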

Additional observations from a re-analysis of the deposited data

How the results depend on the processing

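In each of the 11 alternatives, 0 of the members passed the adjusted threshold (limma). The number at an unadjusted p under 0.05, all lower in the knockout, is given here with the lower share of all genes tested in brackets. It was 2 as deposited (1.15%), 1 after trimmed-mean rescaling (0.778%) and 1 with scaling outside milk proteins (0.87%). Without wild-type replicate 1 and knockout replicate 3 together it was 8 (0.348%). It ran from 0 to 10 when 1 library was left out. The number was 0 without wild-type replicate 1 (0.164%) or knockout replicate 1 (1.45%), 6 without wild-type replicate 2 (0.84%), and 10 with knockout replicate 3 left out (0.45%). A pseudocount of 0.1 moved the median log2 fold change of mitosis genes to -0.94 and their class level to 0.97 in wild-type replicate 1 and -1.01 in knockout replicate 1, since it gives low values more weight. Trimmed-mean rescaling moved the replication level of wild-type replicate 1 to -0.18. Mitosis genes with their peak in wild-type replicate 1 then numbered 12, against 24 as deposited, while the share of all genes tested went from 63.5% to 27.6%. This count, and the other counts of library order, were rescaled after the data were seen. Leaving out 1 library gave medians from -0.44 to 0.05 for replication genes and from -0.72 to -0.23 for mitosis genes. The sign turned under at least 1 alternative for 8 of the 22 tested genes, Mki67 and 7 replication genes (Mcm2, Mcm3, Mcm4, Mcm5, Rrm1, Rrm2 and Gins2). Mcm3 ran from -0.57 without knockout replicate 3 to 0.052 without knockout replicate 1 when 1 library was left out. Mcm4 ran from -0.027 to 0.45 between the same libraries and was at -0.093 with both wild-type replicate 1 and knockout replicate 3 left out. Mki67 ran from -0.72 to 0.56 between the same libraries, and was at -0.16 without wild-type replicate 2, -0.070 with the pseudocount of 0.1 and -0.74 with both end libraries left out. The depth is unknown, so values under 1 FPKM carry a counting error that could not be computed. No paired analysis was possible because the labels give each mouse its own number and no number is shared between the genotypes.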
